A study of Mus musculus with 15 samples.

Results

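The insulin-like growth factor (IGF) system was measured here through 10 genes, namely the ligand Igf1, the receptors Igf1r and Igf2r, the acid-labile subunit Igfals, and the binding proteins Igfbp1 to Igfbp6. Members were taken as every non-control probe whose gene name on the array is one of these symbols. This gave 15 probes for 10 of the 22594 genes that the array names by a symbol, and all 10 members were bright enough to be tested. The series compared whole tumor tissue of male mice on 15 single-colour Agilent mouse arrays, with 1 array per tumor. There were 5 hepatocellular carcinomas (HCC) of p53f/f mice, whose p53 gene is floxed and not deleted, and 5 HCC of p53LKO mice, in which p53 was deleted in the liver. A further 5 tumors of p53LKO mice are labelled ICC, the usual abbreviation of intrahepatic cholangiocarcinoma. All mice had received carbon tetrachloride (CCl4), a hepatotoxin, at 0.5 µl per g body weight in olive oil for 16 weeks from 6 weeks of age, and were of C57/BL6J background, so every group carries that treatment and none is normal liver. The study collected mice at more than 1 age, and neither the age of the mice behind each hybridised tumor nor the promoter that drives Cre is given in the sources used here. The paper reports that tumors formed later in p53f/f mice, so ages may differ between the genotypes. Age and genotype thus cannot be told apart in comparisons with the p53f/f HCC. Mouse 3717 carried 2 of the 5 p53f/f HCC, which thus stem from 4 mice, and mice 3731, 3733, 3976 and 5283 each gave 1 HCC and 1 ICC.

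IGF1 is secreted mainly by hepatocytes under the control of growth hormone and acts through the tyrosine kinase receptor IGF1R. The receptor IGF2R, which also carries mannose 6-phosphate tagged enzymes to lysosomes, removes IGF2 without signalling. In blood most IGF is held in a complex of IGFBP3 or IGFBP5 with the acid-labile subunit, while the other binding proteins hold it in smaller complexes. Proteases such as PAPP-A release IGF by cutting some of the binding proteins, IGFBP4 among them.

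The members were read by probes of up to 60 bases. The following pair is shown because the first measured the member nearest to the 2-fold limit and the other gave a check of Igfbp2 that does not share bases with its brighter probe. The Igfals probe lies on mm9 at chr17:25018251-25018310, plus strand, and one of its reading frames holds no stop codon. The Igfbp2 probe lies on mm9 at chr1:72898677-72898736, plus strand, and ends on the stop codon, in capitals.
Igfals: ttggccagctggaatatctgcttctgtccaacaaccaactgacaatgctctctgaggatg
Igfbp2: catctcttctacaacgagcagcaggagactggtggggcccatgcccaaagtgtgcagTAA
The 250 bases before the transcription start of Igfbp1, the member with the largest SD within a group, are shown next. They were taken from RefSeq on GRCm38.p6 at chr11:7197537-7197786, plus strand, and capitals mark the letters CAAAACA, a core of elements bound by forkhead factors.
Igfbp1: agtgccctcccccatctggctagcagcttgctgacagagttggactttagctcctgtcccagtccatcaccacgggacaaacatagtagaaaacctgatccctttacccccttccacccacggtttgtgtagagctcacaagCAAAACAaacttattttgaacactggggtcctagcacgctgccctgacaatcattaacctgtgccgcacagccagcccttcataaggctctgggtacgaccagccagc
Searched on both strands, CAAAACA occurred in this stretch of 5.56% of the 32851 transcription starts in the table, and of 13 starts of the 10 members it occurred in 1, that of Igfbp1, 108 bases upstream. TATAAA occurred in 12.4% of all starts and in those of Igfbp4 and Igfbp6, and a p53 half-site in 7.13% of all starts and in 0 of the 13. The last search did not look beyond these 250 bases.

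Levels are given as log2 of the background-subtracted signal relative to the 75th percentile of the array, so that 1 unit is a 2-fold difference. A level is compared between tumors for the same probe only, since probes differ in brightness. Precision is limited by having 5 arrays in each group. A gene was represented by its brightest probe, and calls of higher or lower needed an adjusted p below 0.05 in limma together with more than a 2-fold difference. All arrays lay on 2 slides with 2 rows each, and 0 probes were saturated. The share of probes well above background followed the row, with 55.1% to 70.1% on all upper-row arrays and 37.0% to 47.0% on all lower-row arrays. Within the p53LKO HCC it was 61.0% to 62.1% in the upper row and 37.0% and 46.4% in the lower row. The p53f/f HCC all lay in an upper row and the ICC all in a lower row, so that row and group cannot be told apart between these groups. The p53LKO HCC of mice 3976 and 5283 lay in a lower row and the other 3 in an upper row. The Trp53 probe, which the array places at a pseudogene on another chromosome, read -1.27 to -0.68 in p53f/f HCC, -3.86 to -2.75 in p53LKO HCC and -4.19 to -2.31 in ICC.

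The marker lists were used to check the labels. The ICC had higher Krt19, Epcam and Spp1, markers of bile duct cells, than the p53LKO HCC. By limma the log2 fold change was 4.67 (SE 0.62, adjusted p = 0.000304) for Krt19 and 4.73 (SE 0.35, adjusted p = 1.3e-05) for Spp1. Epcam was not well above background in any p53LKO HCC and was at least 94.0-fold higher in ICC, taking the dim group at the lowest signal called well above background. Cldn7, another of the bile duct markers, was lower in ICC, with a log2 fold change of -2.52. The level of Alb, which encodes albumin, the main hepatocyte product, was 7.85 ± 1.18 (SD, n = 5) in ICC and 9.76 ± 0.28 in p53LKO HCC, with the probe well above background on all of these arrays. Not every hepatocyte marker was lower in ICC. Cyp2e1 had a log2 fold change of 1.94 against p53LKO HCC (adjusted p = 0.101 by limma) and Tat of -0.39, neither of them called. Fewer cells of a type and less RNA per cell cannot be told apart in whole tissue.

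The first comparison asked which members differ between HCC of p53LKO and of p53f/f mice. In p53LKO HCC, Igf1 was 6.80-fold lower and Igfbp6 was 14.7-fold higher than in p53f/f HCC, and none of the other 8 members passed the test. This is 1 member of 10 called higher, where 5.42% of the 16850 genes tested were called higher, and 1 called lower, where 9.00% of all genes were called lower. The median log2 fold change of the 10 members was -0.10, beside 0.09 over all genes tested.

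**Figure D1:**
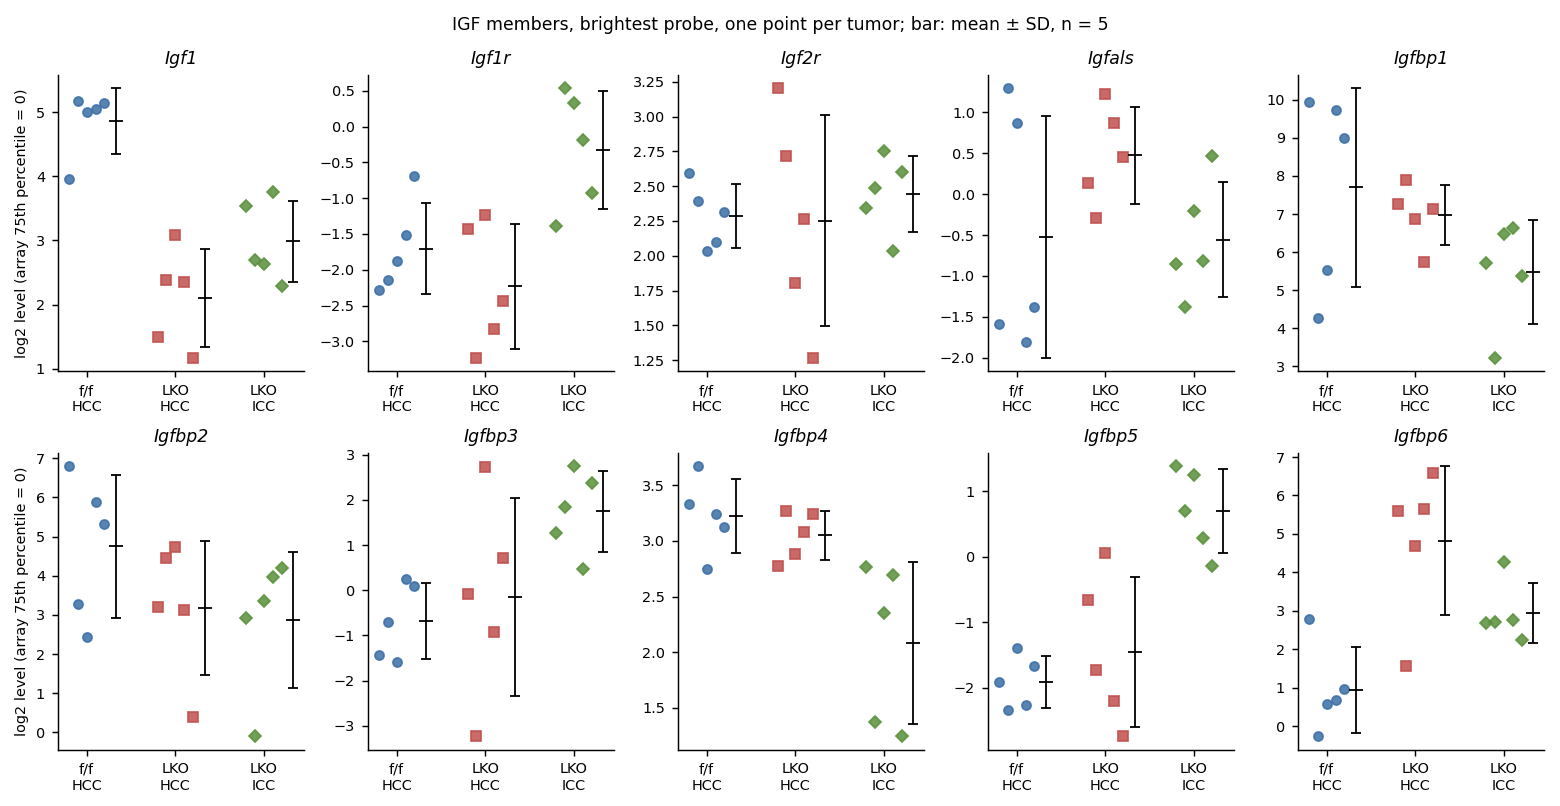
Log2 level of each member in every tumor, relative to the 75th percentile of the array, on a separate vertical axis per gene. Points are single tumors, 5 per group, and the bar beside them is the mean ± SD; Igf1 in p53f/f HCC lies above all tumors of both other groups and Igfbp6 in 4 of 5 p53LKO HCC above every p53f/f HCC.

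Igf1 encodes the ligand through which growth hormone acts on growth. Its brightest probe, on mm9 at chr10:87393581-87393640, read 3.96, 5.17, 4.999, 5.05 and 5.14 in the p53f/f HCC of mice 3681, 3715, 3716 and 3717 (tumors T1 and T2). In p53LKO HCC it read 1.50, 2.39, 3.08, 2.35 and 1.17 in mice 3976, 5283, 3731, 3733 and 3975. In ICC it read 3.54, 2.69, 2.64, 3.76 and 2.29 in mice 3731, 3733, 3976, 3977 and 5283. All 10 tumors of p53LKO mice thus lay below all 5 tumors of p53f/f mice, and the lowest p53f/f HCC stood apart from the other 4. In p53LKO HCC the log2 fold change was -2.77 (SE 0.37, adjusted p = 0.000356 by limma; exact permutation test, 2-sided, p = 0.00794, the smallest that 5 against 5 arrays allow). It was called in 26 of 26 alternative settings, between -3.01 and -2.03, and the upper row of the slides alone gave -2.66. The SD over the 2 spots of the probe on an array had a median of 0.0483, against an SD over the tumors of a group of 0.51 to 0.76.

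The array carries 5 Igf1 probes, and they did not all read alike. The brightest and 3 others, which the array names for the same transcript, gave log2 fold changes of -2.77, -2.76, -2.74 and -1.85 in p53LKO HCC, each called. These 4 probes lie between 87393561 and 87399640 on chromosome 10, and the positions of the brightest and the next one overlap. The remaining probe, at chr10:87378456-87378515, is named for another transcript of the gene, and it gave -0.17 (95% interval -0.49 to 0.14, adjusted p = 0.383 by limma). Its levels ran from 2.33 to 2.78 in p53f/f HCC and from 2.24 to 2.42 in p53LKO HCC. In ICC it ran from 1.58 to 1.99, below every tumor of both HCC groups, with log2 fold changes of -0.54 against p53LKO HCC (adjusted p = 0.00973) and -0.71 against p53f/f HCC (adjusted p = 0.00608) by limma, both under 2-fold.

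**Figure D2:**
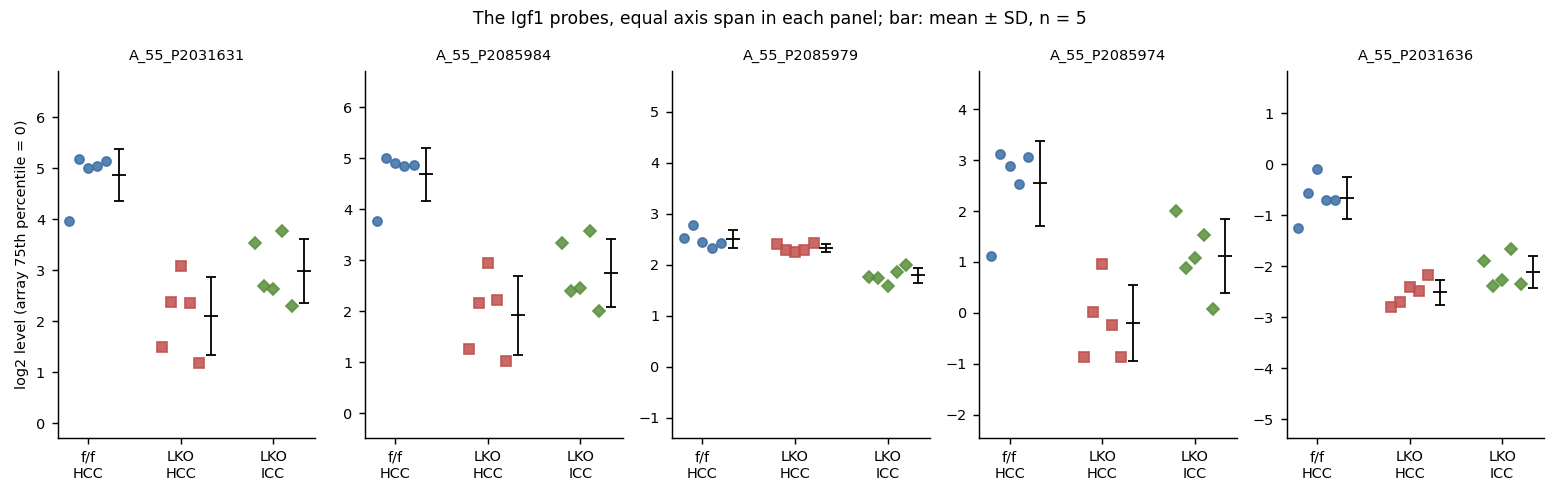
Log2 level of the 5 Igf1 probes in each tumor, relative to the 75th percentile of the array, with the same span on each vertical axis. Points are single tumors and bars are mean ± SD (n = 5); 4 probes fall from p53f/f HCC to p53LKO HCC, while the one named for another transcript (middle panel) reads 2.24 to 2.78 in all HCC and 1.58 to 1.99 in ICC.

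Igfbp6 encodes a binding protein with a preference for IGF2. Its probe, on mm9 at chr15:101979852-101979911, read 2.78, -0.26, 0.58, 0.67 and 0.96 in the p53f/f HCC of mice 3681, 3715, 3716 and 3717 (T1 and T2). It read 5.59, 1.56, 4.69, 5.66 and 6.59 in the p53LKO HCC of mice 3976, 5283, 3731, 3733 and 3975. In ICC it read 2.68, 2.70, 4.28, 2.77 and 2.24 in mice 3731, 3733, 3976, 3977 and 5283. In p53LKO HCC 4 of 5 tumors lay above every p53f/f HCC, and the tumor of mouse 5283, the array with the fewest probes above background, fell inside the p53f/f range. This gave a log2 fold change of 3.87 (SE 0.86, adjusted p = 0.00640 by limma; exact permutation test, 2-sided, p = 0.0159). It was called in 24 of 26 alternatives, and in the upper row of the slides alone it was 4.70. Without the HCC of mouse 5283 it was 4.69 (adjusted p = 0.000334 by limma). The call was lost with the Mann-Whitney test and on slide 1 alone, which holds 4 p53f/f HCC and only the p53LKO HCC of mice 3976 and 5283, where the value was 2.63. The summed level of the 10 stellate cell and fibroblast markers ran from 5.02 to 6.90 in p53f/f HCC and from 6.25 to 8.00 in p53LKO HCC. Of the 10, 2 were called higher, Lum and Pdgfra, beside 5.42% of all genes. By tumor the sum was 7.03, 6.79, 8.00, 6.25 and 6.71 in the p53LKO HCC of mice 3976, 5283, 3731, 3733 and 3975. The part of these cells in the Igfbp6 result was not tested.

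Neither receptor passed the test between the HCC groups. Igf1r ranged from -2.28 to -0.70 in p53f/f HCC and from -3.23 to -1.24 in p53LKO HCC, which gave -0.53 as the log2 fold change (95% interval -1.47 to 0.42, adjusted p = 0.366 by limma). For Igf2r the ranges were 2.03 to 2.60 and 1.27 to 3.20, with a log2 fold change of -0.04 (95% interval -0.76 to 0.68, adjusted p = 0.942 by limma). The Igf2r probe was spotted 10 times on each array, and the SD over its spots was 0.0631 to 0.112. The SD over tumors was larger, 0.23 among p53f/f HCC and 0.76 among p53LKO HCC.

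Igfals and Igfbp1, which hepatocytes secrete, and Igfbp2, another secreted binding protein, separated the p53f/f HCC into tumors of opposite levels. Igfbp1 on mm9 at chr11:7102442-7102501 read 9.94, 9.73 and 9.01 in the HCC of mouse 3681 and in both tumors of mouse 3717, and 4.27 and 5.54 in mice 3715 and 3716. Igfbp2 was high in the same tumors, at 6.79, 5.89 and 5.33, and low in the other 2, at 3.28 and 2.44. Igfals ran the other way, with -1.59, -1.81 and -1.38 in the first 3 tumors and 1.30 and 0.86 in mice 3715 and 3716. These 5 tumors come from 4 mice, so the 3 tumors of high Igfbp1 are 2 mice. The split is a description of 5 tumors, with no test.

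In p53LKO HCC Igfbp1 kept to a narrower range, at 7.27, 7.91, 6.87, 5.75 and 7.14 in mice 3976, 5283, 3731, 3733 and 3975. Its SD was 0.79 there and 2.61 in p53f/f HCC. The log2 fold change of Igfbp1 was -0.71 (95% interval -3.02 to 1.60, adjusted p = 0.630 by limma). Igfbp2 had -1.57 (95% interval -3.69 to 0.55, adjusted p = 0.233), and its probe that ends on the stop codon had -1.64. Igfals had 1.00 (95% interval -0.37 to 2.36, adjusted p = 0.238). These intervals include differences of more than 2-fold, so the values do not show that the genes were alike in the groups. With spike-in scaling, which moved the median of all genes by 0.74, Igfals was called at 1.74 (adjusted p = 0.0342 by limma). The summed hepatocyte markers were 10.75 to 11.6 in p53f/f HCC and 10.4 to 10.9 in p53LKO HCC, and within p53f/f HCC they were 11.6, 11.3 and 11.1 in the tumors of high Igfbp1 and 10.75 and 11.0 in the others. The summed markers of T, B and NK cells were 7.35, 6.18 and 6.10 in the same 3 tumors and 4.75 and 4.75 in the others. That sum is carried by its brightest probe, Cd4, whose SD over the p53f/f HCC was 1.401, while those of the other markers ran from 0.15 (Cd79a) to 1.01 (Cd3d). The summed endothelial markers were 5.66, 5.87 and 5.47 in the 3 tumors and 5.15 and 5.01 in the others. The part of these cells was not tested.

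**Figure D3:**
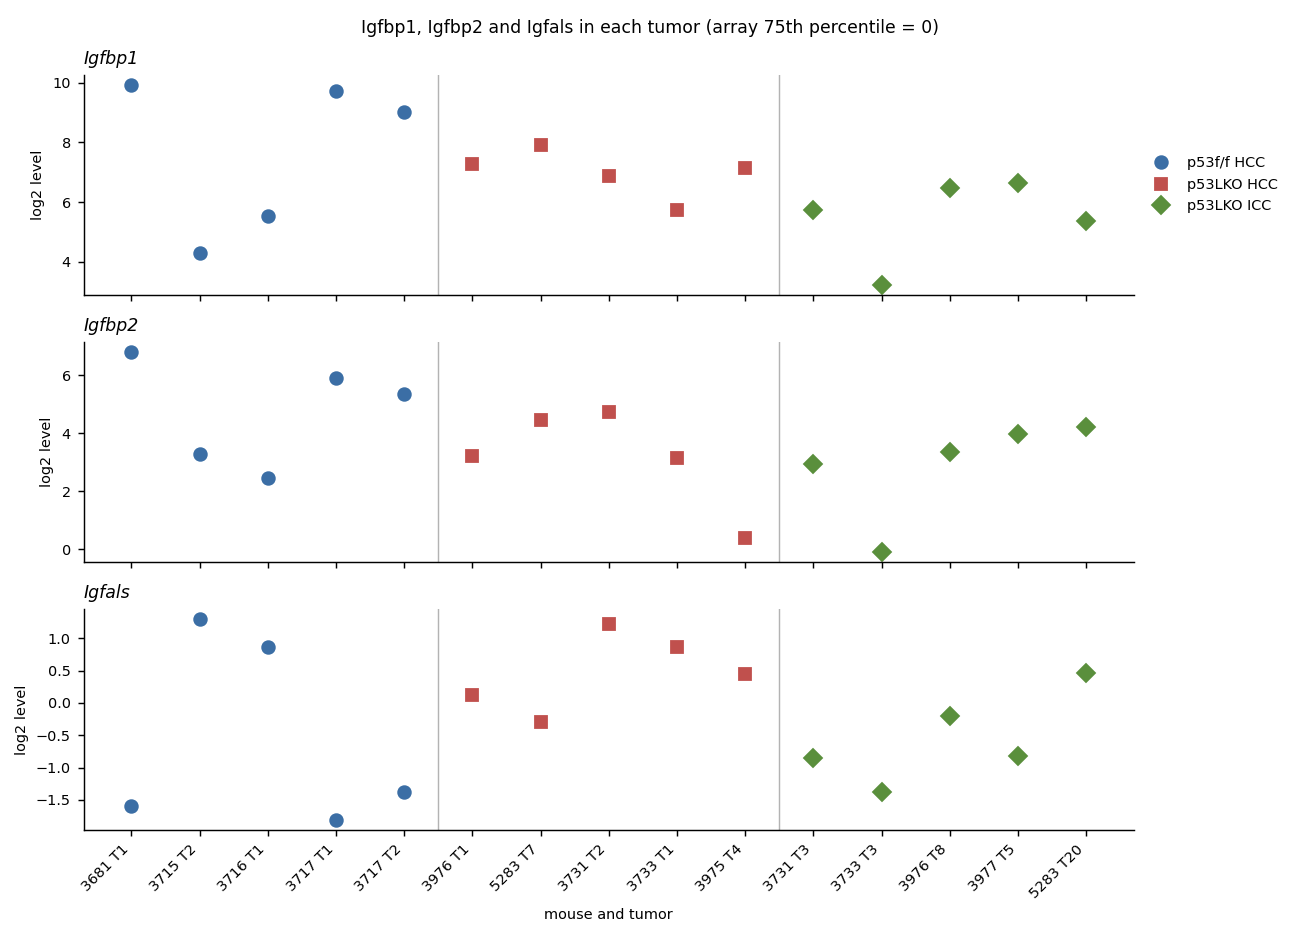
Log2 level of Igfbp1, Igfbp2 and Igfals in each of the 15 tumors, named by mouse and tumor number, relative to the 75th percentile of the array and on separate axes. In p53f/f HCC, tumors 3681 T1, 3717 T1 and 3717 T2 have Igfbp1 of 9.01 to 9.94 and Igfals below -1.3, while 3715 T2 and 3716 T1 have Igfbp1 of 4.27 and 5.54 and Igfals above 0.8.

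None of Igfbp3, Igfbp4 and Igfbp5 passed the test between the HCC groups. Igfbp3, the carrier of most IGF in blood, ranged from -1.59 to 0.25 in p53f/f HCC and from -3.23 to 2.74 in p53LKO HCC (log2 fold change 0.52, 95% interval -1.47 to 2.51, adjusted p = 0.688 by limma). Igfbp4, which is cut by PAPP-A, read 3.22 ± 0.34 and 3.05 ± 0.22, and its log2 fold change was -0.17 (95% interval -0.61 to 0.26, adjusted p = 0.529). Igfbp5, a matrix-bound binding protein, had means of -1.92 and -1.46 with SDs of 0.40 and 1.14 over 5 tumors each, and its log2 fold change was 0.46 (95% interval -0.59 to 1.51, adjusted p = 0.483).

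The second comparison asked which members differ between ICC and HCC of p53LKO mice. In ICC, Igf1r was 3.74-fold higher, Igfbp5 was 4.44-fold higher and Igfals was 2.05-fold lower. These are 2 of 10 members called higher, where 12.3% of the 16140 genes tested were called higher, and 1 called lower, where 15.5% of all genes were called lower. The median log2 fold change of the members was -0.06, beside -0.19 over all genes tested. Since both tumor types came from the same mice in 4 cases, the fit was also run with the mouse as a block. It called 2 members, Igfbp5 again and Igfbp1, the latter lower in ICC. Over all genes this fit called 1675 higher and 2267 lower, against 1992 and 2504 without the block.

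**Figure D4:**
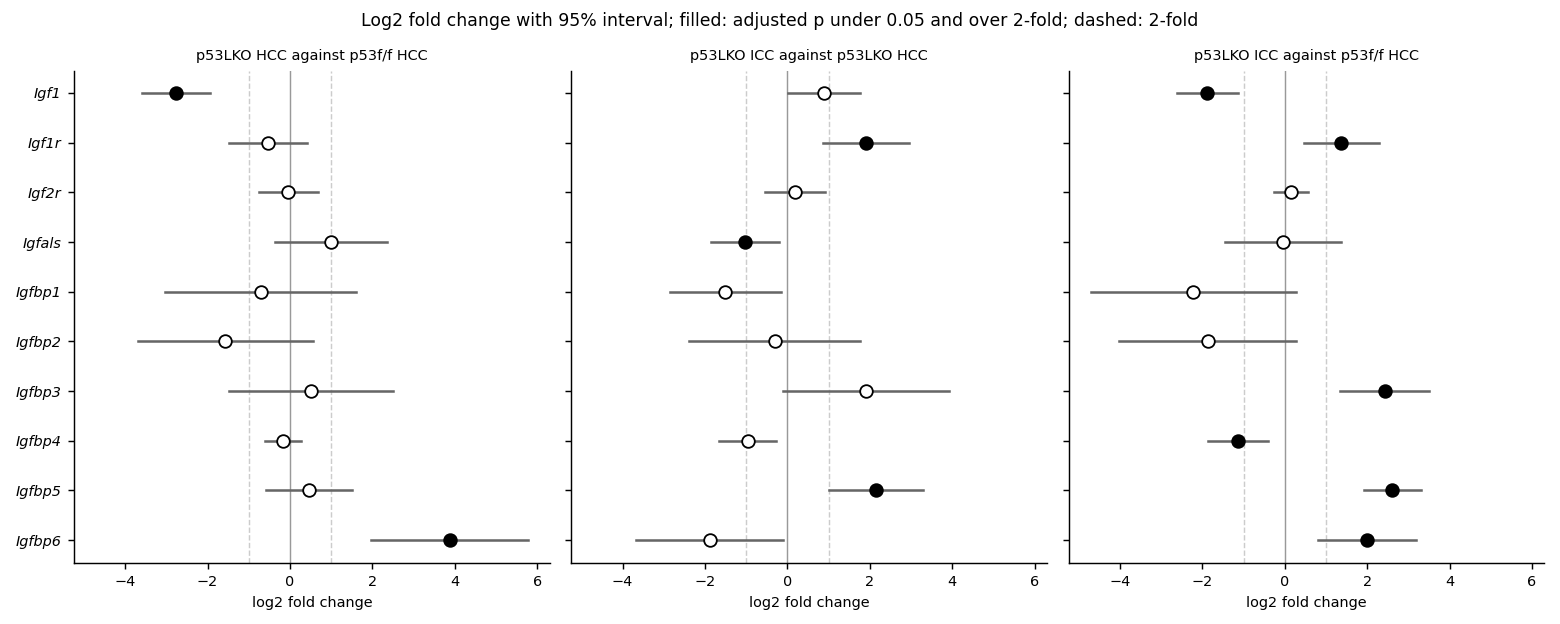
Log2 fold change of the 10 members in the 3 comparisons, with 95% intervals from limma, on one horizontal scale. Filled circles mark members that were called (dashed lines, 2-fold), 2, 3 and 6 of them from left to right; the comparisons share arrays and are not independent.

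Igf1r, the signalling receptor, read -1.39, 0.54, 0.32, -0.19 and -0.92 in the ICC of mice 3731, 3733, 3976, 3977 and 5283. In p53LKO HCC it read -1.43, -3.23, -1.24, -2.83 and -2.44 in mice 3976, 5283, 3731, 3733 and 3975. All ICC but that of mouse 3731 lay above every p53LKO HCC, and in that mouse the HCC, at -1.24, was the higher of its pair. The log2 fold change was 1.90 (SE 0.47, adjusted p = 0.00829 by limma; exact permutation test, 2-sided, p = 0.0159). With the mouse as a block it was 1.82, and the adjusted p of 0.0561 by limma no longer passed. In the lower row of the slides alone it was 1.999 (adjusted p = 0.0633). The mean of Igf2r was 2.25 (SD 0.76) in p53LKO HCC and 2.44 (SD 0.27) in ICC, which differ by 0.19 (95% interval -0.54 to 0.92).

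Igfbp5 read 1.38, 0.70, 1.25, 0.28 and -0.14 in the ICC of mice 3731, 3733, 3976, 3977 and 5283, on mm9 at chr1:72904829-72904888. In p53LKO HCC it read -0.67, -1.73, 0.06, -2.20 and -2.74 in mice 3976, 5283, 3731, 3733 and 3975. In ICC 4 of 5 tumors exceeded every p53LKO HCC, and each of the 4 mice with both tumors had more Igfbp5 in its ICC than in its HCC. The log2 fold change was 2.15 (SE 0.51, adjusted p = 0.00691 by limma; exact permutation test, 2-sided, p = 0.0159), and it was called in 24 of 25 alternatives. The exception was the row of the slide as a block, with 1.89 and an adjusted p of 0.0710 by limma.

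Igfbp3 read 1.28, 1.85, 2.75, 0.48 and 2.38 in the same ICC. Its p53LKO HCC were widely spread, with -3.23 in mouse 5283, where the probe was not well above background, and 2.74 in mouse 3731. The log2 fold change of 1.90 did not pass (95% interval -0.11 to 3.91, adjusted p = 0.111 by limma). It was 2.63 without the HCC of mouse 3731 (adjusted p = 0.0192) and 3.40 with the row of the slide as a block (adjusted p = 0.0377), and both of these would be called, but it was 1.13 without the HCC of mouse 5283 (adjusted p = 0.219).

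The same ICC had higher levels of most of the stellate cell and fibroblast markers. Of the 10 markers, 6 were called higher and 0 lower in ICC, beside 12.3% and 15.5% of all genes, with a median log2 fold change of 1.78 beside -0.19 over all genes. Lrat and Des of this list went the other way, with log2 fold changes of -1.22 and -0.39, and were not called. The summed level of the markers was 8.96 to 9.78 in ICC, above all p53LKO HCC at 6.25 to 8.00. That sum is carried by its brightest probes, those of Dcn, Col1a2, Col1a1 and Col3a1. The HCC of mouse 3731, which had the most Igfbp3 and Igfbp5 of the p53LKO HCC, also had the highest sum, 8.00. The summed hepatocyte markers were 7.24 to 9.95 in ICC, below all HCC, and 4 of the 9 markers on the array were called lower, beside 15.5% of all genes. The part of either cell type in the results on Igf1r, Igfbp3 and Igfbp5 was not tested.

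**Figure D5:**
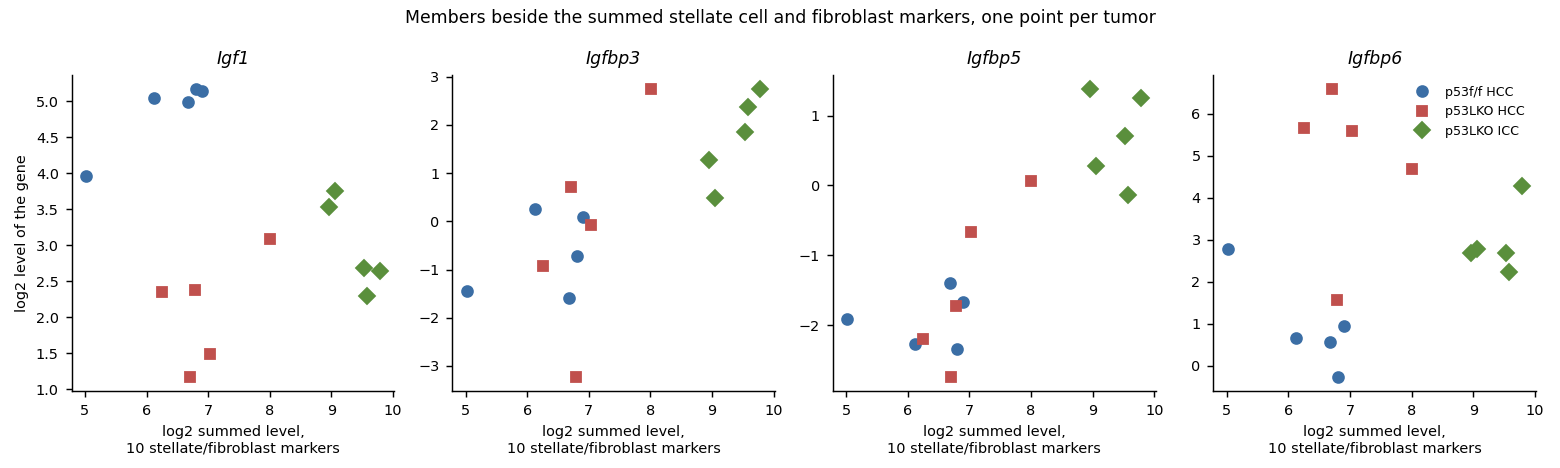
Log2 level of Igf1, Igfbp3, Igfbp5 and Igfbp6 (vertical) beside the log2 summed level of 10 stellate cell and fibroblast markers (horizontal), one point per tumor, 5 per group. The ICC lie at marker sums of 8.96 to 9.78, the p53LKO HCC of mouse 3731 at 8.00 and the other HCC at 5.02 to 7.03.

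Igfals read -0.85, -1.38, -0.20, -0.81 and 0.46 in the ICC of mice 3731, 3733, 3976, 3977 and 5283, and 0.13, -0.29, 1.22, 0.87 and 0.45 in the p53LKO HCC of mice 3976, 5283, 3731, 3733 and 3975. The groups overlap, and only 3 of 5 ICC lay below every p53LKO HCC. The log2 fold change of -1.03 (SE 0.37, adjusted p = 0.0422 by limma) stood at the 2-fold limit, and the exact permutation test, 2-sided, gave p = 0.0556. It was called in 7 of 25 alternatives. With the row of the slide as a block it was -0.48 (adjusted p = 0.440), and with the mouse as a block it was -0.98 (adjusted p = 0.213 by limma).

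Igfbp1 read 5.73, 3.22, 6.47, 6.63 and 5.37 in the ICC of mice 3731, 3733, 3976, 3977 and 5283. Its log2 fold change of -1.50 did not pass (SE 0.62, adjusted p = 0.0670 by limma), while with the mouse as a block it was -1.75 (adjusted p = 0.0226 by limma). All 4 mice with both tumors had less Igfbp1 in the ICC. Igfbp4 lay at 1.25 to 2.76 in ICC, below all p53LKO HCC at 2.77 to 3.27. Its log2 fold change of -0.97 had an adjusted p of 0.0278 by limma and fell just short of 2-fold. Igfbp2 gave -0.31 (95% interval -2.38 to 1.76), and Igfbp6 gave -1.88 (95% interval -3.66 to -0.10, adjusted p = 0.0788 by limma). Without the HCC of mouse 5283, which had the lowest Igfbp6 of its group, Igfbp6 was called at -2.70 (adjusted p = 0.00177 by limma), while with the row of the slide as a block it was -0.64 (adjusted p = 0.642). Igf1 was not called, with 0.89 (adjusted p = 0.0907 by limma), but it was called at 1.13 without the HCC of mouse 3731 (adjusted p = 0.0352), and it was 0.46 with the mouse as a block (adjusted p = 0.222). Of its other probes 1, at chr10:87399581-87399640, was called higher in ICC than in p53LKO HCC, at 1.31 (SE 0.42, adjusted p = 0.0254 by limma).

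The last comparison set ICC of p53LKO mice beside HCC of p53f/f mice and serves only to order the 3 groups, since genotype and tumor type both differ and the row of the slide follows the groups. Of the 10 members, 4 were called higher in ICC, namely Igf1r, Igfbp3, Igfbp5 and Igfbp6, where 11.3% of the 16796 genes tested were called higher. Called lower were 2, Igf1 and Igfbp4, where 11.9% of all genes were called lower. The median of the members was 0.06, beside -0.16 over all genes. With the slide as a block only Igf1 and Igfbp5 were still called. Calls over all genes fell as well, from 1890 to 1192 higher and from 2004 to 956 lower.

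For Igf1 the order of the group means was 4.86 in p53f/f HCC, 2.98 in ICC and 2.10 in p53LKO HCC. The first 2 differed (log2 fold change of ICC against p53f/f HCC -1.88, SE 0.34, adjusted p = 0.00229 by limma), and for the last 2 the adjusted p did not pass with this probe, although the 95% interval of their difference, 0.01 to 1.76, leaves out 0. For Igfbp6 the order was 4.82 in p53LKO HCC, 2.93 in ICC and 0.95 in p53f/f HCC, where ICC exceeded p53f/f HCC by 1.99 (SE 0.54, adjusted p = 0.0165 by limma), a call lost with the slide as a block (adjusted p = 0.104). Igfbp5 stood at 0.70 in ICC, -1.46 in p53LKO HCC and -1.92 in p53f/f HCC, and the 2 HCC groups did not differ beyond their spread. Against p53f/f HCC its log2 fold change in ICC was 2.61 (SE 0.31, adjusted p = 0.000269 by limma), with 5 of 5 ICC above every p53f/f HCC. Igfbp3 had the same order of means, at 1.75, -0.16 and -0.68, and ICC exceeded p53f/f HCC by 2.42 (SE 0.49, adjusted p = 0.00420 by limma).

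Igf1r was highest in ICC with -0.33, followed by p53f/f HCC with -1.70 and p53LKO HCC with -2.23. ICC exceeded p53f/f HCC by 1.37 (SE 0.42, adjusted p = 0.0267 by limma), which was called in 13 of 22 alternatives. Igfbp4 stood at 3.22 in p53f/f HCC, 3.05 in p53LKO HCC and 2.08 in ICC, and its log2 fold change in ICC against p53f/f HCC was -1.14 (SE 0.33, adjusted p = 0.0227 by limma), called in 16 of 22. For Igfbp1 the means were 7.70, 6.99 and 5.48 in p53f/f HCC, p53LKO HCC and ICC, and for Igfbp2 they were 4.75, 3.18 and 2.87, with no neighbours called. The 95% interval of Igfbp1 in ICC against p53LKO HCC, -2.86 to -0.15, leaves out 0, and it was called lower in 5 of 25 alternatives, the mouse as a block among them. No neighbours were called for Igf2r either, whose group means lay within 0.19 of each other.

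The genes around the members were taken from lists and gave a wider view of the pathway. Of 4 ligand genes of IGF and insulin, Igf2 was called higher and Igf1 lower in p53LKO HCC against p53f/f HCC, beside 5.42% and 9.00% of all genes. Ins1 (-0.997, adjusted p = 0.00249) and Ins2 (-0.93, adjusted p = 0.00256), by limma, fell short of 2-fold. Igf2, the fetal ligand, read -4.28 ± 0.44 in p53f/f HCC, 3.50 ± 1.34 in p53LKO HCC and -2.12 ± 1.91 in ICC (SD, n = 5 each). Its probe cleared the background limit in 2 of 5 p53f/f HCC, 5 of 5 p53LKO HCC and 3 of 5 ICC. Between the HCC groups it was thus tested only because of the group where it is high, and no size is given for that difference. The log2 fold change of -5.61 in ICC against p53LKO HCC (adjusted p = 0.000816 by limma) rests partly on signal near background. Igf2bp3, which encodes a protein that binds Igf2 transcripts, was also highest in p53LKO HCC, at -0.23 ± 0.33 (SD, n = 5), and was called higher there than in p53f/f HCC and than in ICC by limma. Its probe cleared the background limit in 2 of 5 p53f/f HCC, in 5 of 5 p53LKO HCC and in 1 of 5 ICC, so that it was tested only because of the group where it is high, and no size is given for these differences.

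Of 8 genes for proteases that cut IGF binding proteins, and for their inhibitors, 4 were called higher and 2 lower in ICC against p53LKO HCC, where 12.3% of all genes were called higher and 15.5% lower, with a median log2 fold change of 2.28 beside -0.19 over all genes. Mmp7, a matrix metalloproteinase, rose by 8.94 (SE 0.70, adjusted p = 1.8e-05) and Stc2, an inhibitor of PAPP-A, by 4.83 (SE 0.54, adjusted p = 0.000122) on the log2 scale by limma. Stc1, the other PAPP-A inhibitor of the list, was not well above background in any ICC and was at least 2.003-fold lower there. It was tested only because of the p53LKO HCC, the group where it is high, so no p is given. Pappa, which encodes PAPP-A, read -0.51 ± 0.46 in p53f/f HCC, -3.90 ± 0.50 in p53LKO HCC and -0.13 ± 1.41 in ICC (SD, n = 5 each). Its log2 fold change in p53LKO HCC against p53f/f HCC was thus -3.38 (SE 0.29, adjusted p = 8.2e-05 by limma), and in ICC against p53LKO HCC it was 3.77 (SE 0.59, adjusted p = 0.000685). The Pappa probe cleared the background limit in 3 of 5 p53LKO HCC, as did that of Stc2, so these values rest partly on signal near background. The related gene Pappa2 was not well above background in any HCC and was at least 4.12-fold higher in ICC than in p53LKO HCC. It was tested only because of the ICC, the group where it is high, so no p is given. In p53LKO HCC against p53f/f HCC, 1 of 7 tested was higher, the serine protease gene Htra1 with 1.73 (adjusted p = 0.0196 by limma), and 1 lower, Pappa. Over all genes 5.42% were called higher and 9.00% lower in that comparison.

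Growth hormone signalling, which drives Igf1 in the liver, had 0 of 11 genes called between the HCC groups by limma, with 3 at an unadjusted p under 0.05 and a median of -0.02. Ghr, the growth hormone receptor, had a mean level of 3.65 (SD 0.63) among p53f/f HCC and of 3.77 (SD 0.36) among p53LKO HCC. With 5.42% of all genes called higher and 9.00% lower in this comparison, few or no calls among 11 genes are no result about the list. In ICC against p53LKO HCC 3 of 11 were higher, the feedback inhibitors Socs1, Socs2 and Socs3, and 1 was lower, Ghr. Socs2 had a log2 fold change of 2.66 (SE 0.18, adjusted p = 7.3e-06) and Ghr of -1.69 (SE 0.38, adjusted p = 0.00485) by limma. Of 24 genes of insulin and IGF receptor signalling, 1 was higher and 2 lower in p53LKO HCC against p53f/f HCC, and 3 were higher and 4 lower in ICC against p53LKO HCC, shares near those of all genes in the second comparison (12.3% higher and 15.5% lower). Of the 4, Foxo4 was not well above background in any ICC and has no fold, and the insulin receptor substrate gene Irs1 had -2.28 (SE 0.33, adjusted p = 0.000486) by limma. In the mannose 6-phosphate pathway, to which Igf2r belongs, 0 of 4 genes were called between the HCC groups by limma, with 2 at an unadjusted p under 0.05. In ICC against p53LKO HCC, Gnptab, which makes the tag, had 2.03 (SE 0.24, adjusted p = 0.000171 by limma) and Nagpa, which uncovers it, had -1.56 (SE 0.20, adjusted p = 0.000289).

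Of the proteins related to IGF binding proteins, 3 of 8 tested were higher in ICC than in p53LKO HCC and 1 was lower, beside 12.3% and 15.5% of all genes. The secreted matrix protein gene Ctgf led with 2.53 (SE 0.43, adjusted p = 0.00106 by limma), and Htra1 was lower with -1.39. In p53LKO HCC against p53f/f HCC, 1 of 9 was higher, Htra1, and 1 lower, Igfbpl1, beside 5.42% and 9.00% of all genes. The latter was not well above background in any p53LKO HCC and was at least 1.96-fold lower, which as a bound is under the 2-fold limit. Of the other cell types, 7 macrophage markers had 0 called by limma, and 1 at an unadjusted p under 0.05, both between the HCC groups and in ICC against p53LKO HCC. Of 8 proliferation genes 0 were called in these comparisons, and 0 had an unadjusted p under 0.05. Of 7 endothelial markers, 1 was lower in p53LKO HCC against p53f/f HCC and 1 higher in ICC against p53LKO HCC, and of 7 T, B and NK cell markers 0 were called between the HCC groups (1 at an unadjusted p under 0.05) and 2 were higher and 1 lower in ICC against p53LKO HCC. Markers of pancreatic acinar cells, which can lie beside the liver, were tested at 5 of 7 between the HCC groups, with 1 lower, and at 3 of 7 in ICC against p53LKO HCC, with 2 lower.

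The genes with the pattern most like that of a member were sought over the 15 arrays among 11316 genes well above background on every array. The points share 3 groups, so that any gene with the same order of groups scores high. For Igfbp6 they were Gm6579, Sparc and Chordc1 (Pearson's r 0.89, 0.89 and 0.89), for Igf1 Gm39115, Ttc39b and Rad51d (0.89, 0.89 and 0.89), and for Igfbp5 Myo5a, Naaa and Col3a1 (0.92, 0.91 and 0.91). Sparc and Col3a1 encode a matrix glycoprotein and a fibrillar collagen, and Col3a1 is one of the 10 stellate cell and fibroblast markers.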

How the data were processed

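Total RNA of 15 liver tumors was labelled with Cy3 and hybridised to 1-colour Agilent arrays, and the authors extracted the images with Agilent Feature Extraction 10.7.3.1. Per the file headers, the deposited scanner output holds, for each of 62976 spots, a processed signal, which is an intensity after background subtraction, on mm9 probe positions. The authors also deposited a log2 table. It was found to hold the log2 processed signal minus the 75th percentile of the array, centred per probe on 10 arrays, with different arrays for HCC and ICC, so it served only as an alternative for the HCC comparison.

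In R 4.3.3, log2 signals, without the 127 to 224 spots per array flagged as outliers, were averaged over the spots of 55681 probes and shifted by the 75th percentile of the array. Probes that exceeded the background limit on 3 or more of the 5 arrays in either group were tested with limma 3.58.1 on the 10 arrays of a comparison, with Benjamini-Hochberg adjustment over all of them. Exact permutation tests ran over 252 ways of choosing 5 of 10 arrays. The fit was tested on simulated data. Figures were drawn with matplotlib 3.10.9.

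Samples were grouped by their labels, and none was left out. The members and the 15 gene lists were chosen with earlier results of these data known, so no list counts as independent support. Named are all members, up to 4 called genes per list and comparison with the largest change, marker genes that check the labels, and Trp53. The pairing of HCC and ICC rests on the mouse numbers. Deviations from the group means correlated at -0.14 to 0.07 within a mouse and at -0.26 to 0.28 between mice. Alternatives covered background correction, scaling, filters, blocks, the probe of a gene, the methods' tests and leaving out each tumor. The rows and slides taken alone were chosen after seeing the data.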

Additional observations from a re-analysis of the deposited data

Results flagged for a closer look

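In 30 sets of 5 tumors (10 members in 3 groups), 2 tumors lay far from the other 4 of their group by Dixon's ratio (critical value 0.71), where chance gives about 1 in 20. Igf1 was 3.96 in the p53f/f HCC of mouse 3681, against 4.999 to 5.17 in the other p53f/f HCC, a ratio of 0.86. That tumor also had the lowest stellate cell and fibroblast sum of the series, 5.02. Igfbp6 was 4.28 in the ICC of mouse 3976, against 2.24 to 2.77 in the other ICC, a ratio of 0.74. That ICC had the highest stellate cell and fibroblast sum, 9.78. The part of these cells in either value was not tested.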

How the results depend on the processing

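Of 726 values of a member under another setting, 631 kept direction and side of the threshold, 43 lost a call, 21 gained one and 31 changed sign, of which 0 were called. Between the HCC groups 2 members were called. Igf1 alone (1 member) was called with the Mann-Whitney test and on slide 1 alone. Calls over all genes, 913 higher and 1516 lower in the main fit, were 519 and 1105 with that test and 257 and 801 on slide 1 alone. Spike-in scaling called 3, adding Igfals at 1.74 (adjusted p = 0.0342 by limma). In ICC against p53LKO HCC 3 were called, and leaving out 1 tumor gave 2 to 5, with 5 without the HCC of mouse 3731. With the mouse as a replicate block 2 were called, Igfbp5 and Igfbp1, while Igf1r (1.82) and Igfals (-0.98) were lost. In ICC against p53f/f HCC 6 were called, 2 with the slide as a block, 3 with the methods' t-test after adjustment and 3 with the Mann-Whitney test. Over all genes the main fit called 1890 higher and 2004 lower in that comparison. The slide as a block called 1192 and 956, the t-test 1624 and 1513, and the Mann-Whitney test 1568 and 1488. The row of the slide could not be fitted as a block there. The cause of these changes was not tested.

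Sign changes concerned values that were not called. Between the HCC groups Igf2r was 0.0276 with normexp, 0.70 with spike-in scaling, 0.24 with the slide as a block, 0.68 on slide 1 alone and -0.28 to 0.21 when leaving out 1 tumor. With spike-in scaling Igf1r was 0.21, Igfbp1 0.0252 and Igfbp4 0.57. On slide 1 alone Igfbp1 was 0.22 and Igfbp3 -0.79, and Igfbp3 was -0.23 with the slide as a block and -0.20 to 1.29 when leaving out 1 tumor. In ICC against p53LKO HCC Igfbp2 was 0.0627 with the percentile over probes detected on all arrays, 0.11 on slide 2 alone and -1.004 to 0.44 when leaving out 1 tumor, and Igf2r was -0.52 with the row as a block, -0.52 in the lower row alone and -0.053 to 0.43 when leaving out 1 tumor. In ICC against p53f/f HCC Igfals was 0.0161 with quantile normalization, 0.0885 with that percentile, 0.72 with spike-in scaling, 0.17 with the slide as a block and -0.36 to 0.42 when leaving out 1 tumor.

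Spike-in scaling moved the median of all genes by 0.74 between the HCC groups and by 0.75 in ICC against p53f/f HCC, and the share of called genes that were higher from 37.6% to 91.4% and from 48.5% to 90.2%. The percentile over probes detected on all arrays moved the median by -0.25 between the HCC groups (share 16.3%) and by 0.37 in ICC against p53LKO HCC (share 44.3% to 68.3%). Signal near background limits Igf1r and Igfbp3, each not well above background on 1 of 15 arrays, and Igf2.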
